A study of Mus musculus with 4 samples.

Results

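Brown adipocytes burn fatty acids to make heat, and 10 genes that mark these cells or take part in heat production were followed in mammary tissue with and without miR-21. They were chosen by name, namely *Ucp1*, *Cidea*, *Prdm16*, *Ppargc1a*, *Elovl3*, *Dio2*, *Fabp3*, *Adrb3*, *Otop1* and *Kcnk3*, out of 21835 named rows kept at 1 row per gene name. All 10 exceeded 1 FPKM in at least 1 genotype, as did 13302 of the named rows. FPKM corrects the fragments of a gene for its exon length and for the fragments mapped in the library, so that levels of different genes can be compared per length.

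The samples were mammary glands of 2 miR-21+/+ and 2 miR-21-/- mice of a mixed 129SV::FVB/N::C57BL/6 strain at 2 months of age, from which poly(A) RNA was sequenced. The mutants were homozygous for the miR-21 deletion, and the labels name no Cre or other tissue-restricting transgene for these groups. The gland that was dissected and whether the mice were littermates were not given in the sources used here. The deposited table holds 1 FPKM value per genotype, in which the 2 mice are combined. The spread between mice is therefore unknown, no error or test accompanies any value below, and a difference has no replicate check. Library depth is unknown as well.

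In brown and beige fat, noradrenaline from sympathetic nerves acts on beta-adrenergic receptors and raises cAMP. This starts lipolysis and transcription of *Ucp1*, whose protein lets protons leak back across the inner mitochondrial membrane so that respiration yields heat. The mouse mammary gland is embedded in a fat pad that is mostly white fat, and brown-like fat cells can occur in such depots. A gland RNA sample also holds epithelium, vessels, lymph node and, where dissection includes it, skeletal muscle.

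The mature miR-21 is shown first because the mutants lack it. Its seed, bases 2 to 8, is in capitals, and the sequence is that of RefSeq for mmu-miR-21a-5p (GRCm38.p6, chr11:86584120-86584141, minus strand).
mmu-miR-21a-5p: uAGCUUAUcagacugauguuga
The match to this seed in a transcript reads ATAAGCT as DNA. For every gene the longest 3′ UTR in the annotation was searched, from 238 nt for *Fabp3* to 4858 nt for *Dio2*. Of the 10 genes 1 had a match, *Ppargc1a*, with a single one starting at base 3117 of a 3′ UTR of 3931 nt. Among genes over 1 FPKM in at least 1 genotype, 6.98% of the 13029 with an annotated 3′ UTR had a match. The site of *Ppargc1a* lies in exon 13 of 13 on the minus strand (mm9, chr5:51846296-51846302) and is shown with the bases around it, the match in capitals.
Ppargc1a site: gcccatcaaaatATAAGCTgtaagctttgt
The window runs over chr5:51846285-51846314 in mm9. A match is a description of sequence, and no binding of miR-21 to it was measured.

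Of the 10 genes, 8 were lower by 2-fold or more in miR-21-/- glands and 0 were higher by 2-fold or more. Among all 13302 named rows over 1 FPKM in at least 1 genotype, 2.53% were lower by that much and 2.08% were higher. The 10 genes were chosen with earlier results of these data known, so the contrast with these shares is a description and no test of enrichment. Those 8 genes were 2.04-fold to 6.32-fold lower, with a median of 2.69-fold. The median log2 ratio of the 10 genes, miR-21-/- over miR-21+/+, was −1.26, against −0.03 over all 13302 rows. Among rows over 5 FPKM in at least 1 genotype, 4 of 5 members and 1.42% of all rows were 2-fold lower, and among rows over 1 FPKM in both genotypes 7 of 9 members and 1.39% of all rows. With 1 FPKM added to both values, 5 of the 10 genes remained 2-fold lower, namely *Ucp1*, *Cidea*, *Dio2*, *Elovl3* and *Ppargc1a*. The share of all rows that remained so with 1 FPKM added was not counted.

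**Figure D1:**
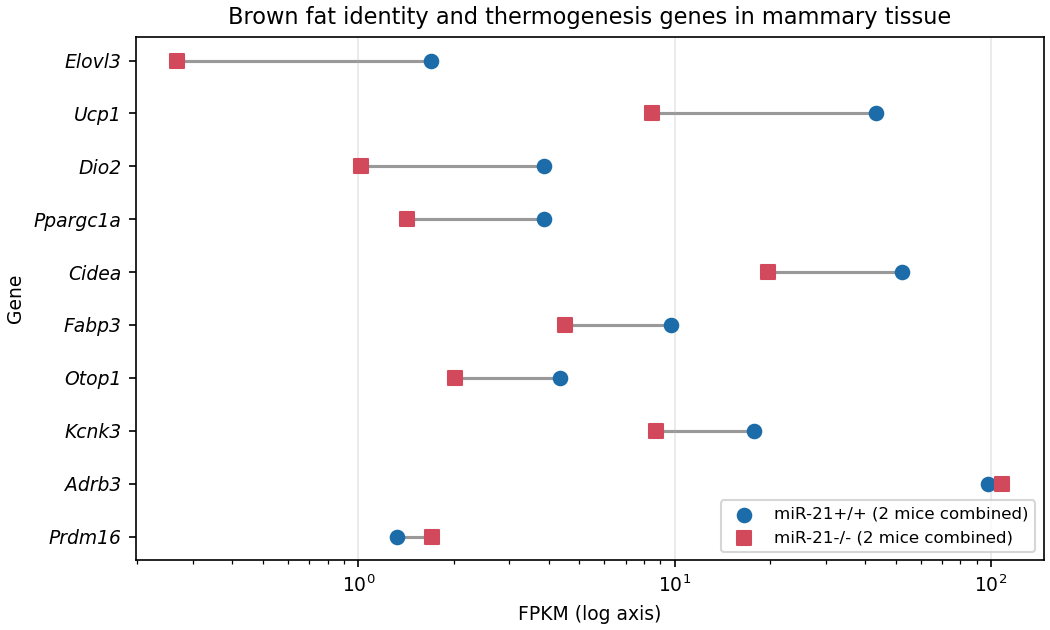
FPKM of each gene in miR-21+/+ glands (circles) and miR-21-/- glands (squares) on a log axis, each point being 1 value for 2 mice combined, with genes ordered by their ratio. *Elovl3* and *Ucp1* show the widest gaps, 6.32-fold and 5.10-fold, while *Adrb3* and *Prdm16* were slightly higher in miR-21-/- glands as deposited and lower when both columns are scaled to equal sums over all loci.

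*Ucp1* encodes the uncoupling protein itself and lies on the plus strand of chromosome 8 from 85814247 to 85822355 (mm9, as all positions of genes here). It stood at 43.3 FPKM in miR-21+/+ and 8.48 FPKM in miR-21-/- glands, a log2 ratio of −2.35. Only 68 of the 13302 rows, *Ucp1* included, were lower by at least as much. In miR-21+/+ glands *Ucp1* lay above 88.7% of these rows or level with them, and in miR-21-/- glands above 46.7%. Its related carriers *Ucp2* and *Ucp3*, named here after their values were seen, were at 85.5 and 82.4 FPKM and at 15.2 and 10.6 FPKM, in miR-21+/+ and miR-21-/- glands respectively.

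Among the genes of lipid handling, *Cidea* encodes a lipid droplet protein that is abundant in brown fat. It was at 52.3 FPKM in miR-21+/+ and 19.7 FPKM in miR-21-/- glands, a log2 ratio of −1.41. A second row of the table with the name *Cidea*, in the same locus, held 31.3 and 12.7 FPKM and a log2 ratio of −1.30. The table places other genes in that locus. *Impa2* was at 5.75 and 5.85 FPKM and *B430212C06Rik* at 0.661 and 0.538 FPKM, in miR-21+/+ and miR-21-/- glands respectively. A cause shared by the locus was not tested.

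*Elovl3*, a fatty acid elongase induced by cold in brown fat (chromosome 19, 46206387 to 46210184, plus strand), had the lowest ratio of the 10 genes. Its level was 1.69 FPKM in miR-21+/+ and 0.268 FPKM in miR-21-/- glands, a log2 ratio of −2.66, and 45 of the 13302 rows were at least as far down. Both values are low, and with 1 FPKM added to each the log2 ratio was −1.09. *Pitx3*, which shares the table's locus with *Elovl3*, was at 0.0273 and 0.0284 FPKM. *Fabp3*, the heart-type fatty acid binding protein, also serves in muscle and in mammary epithelium (chromosome 4, 129985839 to 129992707, plus strand). It was at 9.76 and 4.52 FPKM in miR-21+/+ and miR-21-/- glands, a log2 ratio of −1.11. *Zcchc17*, which shares the table's locus with *Fabp3*, was at 12.8 and 13.3 FPKM.

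*Dio2* encodes the deiodinase that makes active thyroid hormone inside brown adipocytes, where it acts together with adrenergic drive (chromosome 12, 91962994 to 91976878, minus strand). Its level was 3.86 FPKM in miR-21+/+ and 1.02 FPKM in miR-21-/- glands, a log2 ratio of −1.92, or −1.27 with 1 FPKM added. The mutant value was 26.4% of the wild-type value.

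Upstream of these genes stands *Adrb3*, the beta3-adrenergic receptor of both white and brown adipocytes (chromosome 8, 28336248 to 28340060, minus strand). It was the most abundant of the 10 genes in both genotypes, at 97.7 FPKM in miR-21+/+ and 109 FPKM in miR-21-/- glands. Its log2 ratio was 0.15, and −0.48 with both columns scaled to equal sums over all loci. A second, weaker *Adrb3* row held 1.92 and 2.45 FPKM. Set against *Adipoq*, the adipocyte hormone adiponectin, *Adrb3* amounted to 8.10% of the *Adipoq* level with miR-21 present and 12.7% without it, whereas *Ucp1* amounted to 3.59% and 0.994%. Relative to *Adipoq*, then, the receptor was higher and the uncoupling protein lower in the mutants.

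The transcriptional members of the set did not share a direction. *Prdm16*, a zinc finger factor that establishes brown fat identity (chromosome 4, 153690234 to 154010982, minus strand), was the least abundant member in miR-21+/+ glands. It was at 1.33 FPKM there and 1.71 FPKM in miR-21-/- glands, a log2 ratio of 0.37, which became −0.26 with both columns scaled to equal sums over all loci. *Ppargc1a* encodes PGC-1alpha, a coactivator that drives mitochondrial biogenesis and *Ucp1* transcription (chromosome 5, 51845488 to 51958964, minus strand). It was at 3.87 and 1.42 FPKM in miR-21+/+ and miR-21-/- glands, a log2 ratio of −1.44. The table marks the authors' own comparison of *Ppargc1a* as failed, and those of the other 9 genes as completed.

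The membrane proteins *Otop1* and *Kcnk3* were lower by slightly more than 2-fold. *Otop1* encodes a proton channel found in brown fat (chromosome 5, 38667211 to 38695448, plus strand) and was at 4.34 FPKM in miR-21+/+ and 2.02 FPKM in miR-21-/- glands. *Kcnk3* encodes the potassium channel TASK1, a brown fat marker in mice that also occurs in other tissues (chromosome 5, 30890543 to 30927643, plus strand), and was at 17.8 and 8.72 FPKM. The log2 ratios were −1.11 and −1.03. *Gm9899*, which shares the table's locus with *Kcnk3*, was at 0.843 FPKM in miR-21+/+ and 0.467 FPKM in miR-21-/- glands, a log2 ratio of −0.85. *Kcnk3* lay within 2-fold when the columns were scaled to equal sums over loci with a gene name, at −0.93. With 1 FPKM added, *Otop1* and *Kcnk3* both did, at −0.82 and −0.95.

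**Figure D2:**
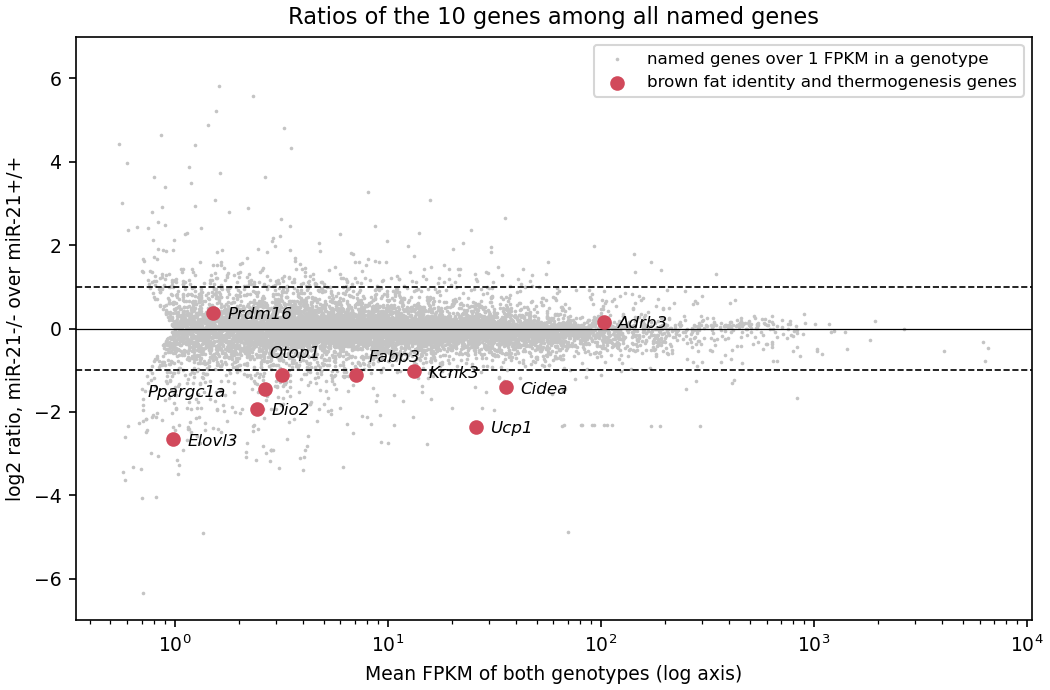
Log2 ratio of FPKM, miR-21-/- over miR-21+/+, against mean FPKM on a log axis for 13289 named rows above 0 in both genotypes (grey) and the 10 genes (red), with dashed lines at 2-fold. *Ucp1* and *Cidea* lie apart from most rows of their level, and *Adrb3* and *Prdm16* lie within the grey band.

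In order of level, *Adrb3*, *Cidea*, *Ucp1*, *Kcnk3*, *Fabp3*, *Otop1*, *Ppargc1a*, *Dio2*, *Elovl3* and *Prdm16* followed each other from 97.7 to 1.33 FPKM in miR-21+/+ glands. In miR-21-/- glands *Kcnk3* at 8.72 FPKM stood just above *Ucp1* at 8.48 FPKM, and *Prdm16* stood seventh, above *Ppargc1a*, *Dio2* and *Elovl3*. Without a value per mouse it cannot be said which neighbours in these orders differ. No gene was named for a pattern like that of these 10, since a pair of values gives no pattern.

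Promoter sequences are shown for *Ucp1* and *Dio2*, the members with the lowest ratios among those matched. RefSeq promoters (GRCm38.p6) were matched for 6 of the 10 genes, *Ucp1*, *Prdm16*, *Ppargc1a*, *Dio2*, *Fabp3* and *Otop1*, and the 250 bases before the annotated start were searched on both strands. The searched motifs were TGACGTCA, the cAMP response element, its half-site TGACG, which is part of the full element, the nuclear receptor half-site AGGTCA, and TATAAA. Capitals mark their matches.
Ucp1 promoter: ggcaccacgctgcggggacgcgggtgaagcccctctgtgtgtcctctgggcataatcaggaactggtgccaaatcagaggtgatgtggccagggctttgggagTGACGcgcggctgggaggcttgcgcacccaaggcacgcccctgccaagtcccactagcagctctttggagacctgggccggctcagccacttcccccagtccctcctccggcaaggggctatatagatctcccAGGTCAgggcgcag
Dio2 promoter: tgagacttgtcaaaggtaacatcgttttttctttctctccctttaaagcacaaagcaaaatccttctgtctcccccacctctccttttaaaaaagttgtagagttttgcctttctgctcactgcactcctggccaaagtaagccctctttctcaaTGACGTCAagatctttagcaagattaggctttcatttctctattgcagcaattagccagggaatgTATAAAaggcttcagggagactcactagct
The first is chr8:83290098-83290347 on the plus strand and the second chr12:90739039-90739288 on the minus strand. The *Dio2* window held the full cAMP response element at bases 95 to 88 before the start and TATAAA at bases 30 to 25. The full element occurred in 1.55% of 32851 promoters and TATAAA in 12.4%. The *Ucp1* window held the half-site TGACG at bases 147 to 143 and AGGTCA at bases 14 to 9 before the start, motifs that occurred in 17.8% and 14% of all promoters. TGACG was also found in the windows of *Fabp3* and *Ppargc1a*, and none of the searched motifs in those of *Prdm16* and *Otop1*. These windows do not include distant enhancers, and no binding was measured.

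Other genes of heat production were taken from lists written from general knowledge, but with earlier results of these data known. Their counts and medians are therefore a description and no independent check. In a list of 20 genes of brown fat mitochondria and fuel use, 18 of the 19 over 1 FPKM were below a log2 ratio of 0. Of these, 3 were lower by 2-fold or more, against 2.53% of all 13302 rows. The counts of each list below are to be read beside the same shares, 2.53% lower and 2.08% higher. The median of the fuel use list was −0.66, or −0.32 with both columns scaled to a median of 0 over the adipocyte markers described below. *Slc27a2*, a fatty acid transport protein and acyl-CoA synthetase, was at 5.12 FPKM in miR-21+/+ and 0.685 FPKM in miR-21-/- glands. Its relative *Slc27a1* was at 368 and 134 FPKM, and the glycerol kinase gene *Gyk*, whose comparison the table marks as failed, at 6.32 and 3.01 FPKM. The most abundant genes of the list, *Lpl*, *Cd36* and *Acsl1*, which take up and activate fatty acids in any adipocyte, were within 2-fold, for example *Lpl* at 1319 and 871 FPKM.

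Genes that relay the adrenergic and thyroid signal numbered 12, of which 1 was 2-fold lower and 0 were 2-fold higher, with a median log2 ratio of −0.15. That gene was *Adcy3*, an adenylyl cyclase that makes cAMP, at 19.3 FPKM in miR-21+/+ and 8.52 FPKM in miR-21-/- glands. *Prkar2b*, a regulatory subunit of protein kinase A that is abundant in fat, was at 225 and 116 FPKM. *Gnas*, which encodes the stimulatory G protein, was at 510 and 462 FPKM, and *Pde3b*, which breaks cAMP down, at 80.4 and 52.2 FPKM. Of 17 further regulators of brown fat, 14 exceeded 1 FPKM, and their median was −0.02 over the 13 with a mean over 1 FPKM. *Ppara*, the receptor that activates fatty acid oxidation genes, was at 7.73 and 3.58 FPKM, and *Irf4*, a factor of brown fat that lymphocytes express too, at 43.2 and 15.0 FPKM. The table marks both comparisons as failed. *Pparg*, the main adipocyte factor, was at 79.2 and 59.8 FPKM, and *Lhx8*, at 1.09 and 2.23 FPKM, was the 1 regulator over 1 FPKM that was 2-fold higher. Across the scalings of the columns the median of the signal genes lay between −0.78 and 0.19 and that of the regulators between −0.65 and 0.28, the scalings shifting every gene alike.

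Genes of heat production that does not need UCP1, such as creatine and calcium cycling, were not lower as deposited. Of 11 such genes 9 exceeded 1 FPKM, and all 9 had log2 ratios above 0, with a median of 0.21, or −0.42 with both columns scaled to equal sums over all loci. *Ckmt2*, the sarcomeric mitochondrial creatine kinase, was at 1.40 FPKM in miR-21+/+ and 3.81 FPKM in miR-21-/- glands, and *Atp2a1*, the calcium pump of fast muscle, at 111 and 191 FPKM. Both are also skeletal muscle genes. Of 8 beige fat markers, 6 exceeded 1 FPKM and 2 were 2-fold lower. Those 2 were *Cited1*, at 43.9 and 11.7 FPKM, which mammary epithelium expresses as well, and *Tmem26*, at 1.26 and 0.575 FPKM. The median of the beige markers was −0.07 over the 5 with a mean over 1 FPKM. Of 12 other brown fat markers, 11 exceeded 1 FPKM, 1 was 2-fold lower and 1 was 2-fold higher, with a median of −0.36 over the 10 with a mean over 1 FPKM. These were *Epsti1*, at 8.71 and 3.93 FPKM, and *Hspb7*, at 0.500 and 1.10 FPKM. The most abundant of them, the amino acid transporter gene *Slc36a2*, was at 114 and 58.2 FPKM. *Tmem26* and *Hspb7* exceeded 1 FPKM only in the genotype in which they were higher. Among all 13302 rows, 2.53% were 2-fold lower and 2.08% were 2-fold higher.

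**Figure D3:**
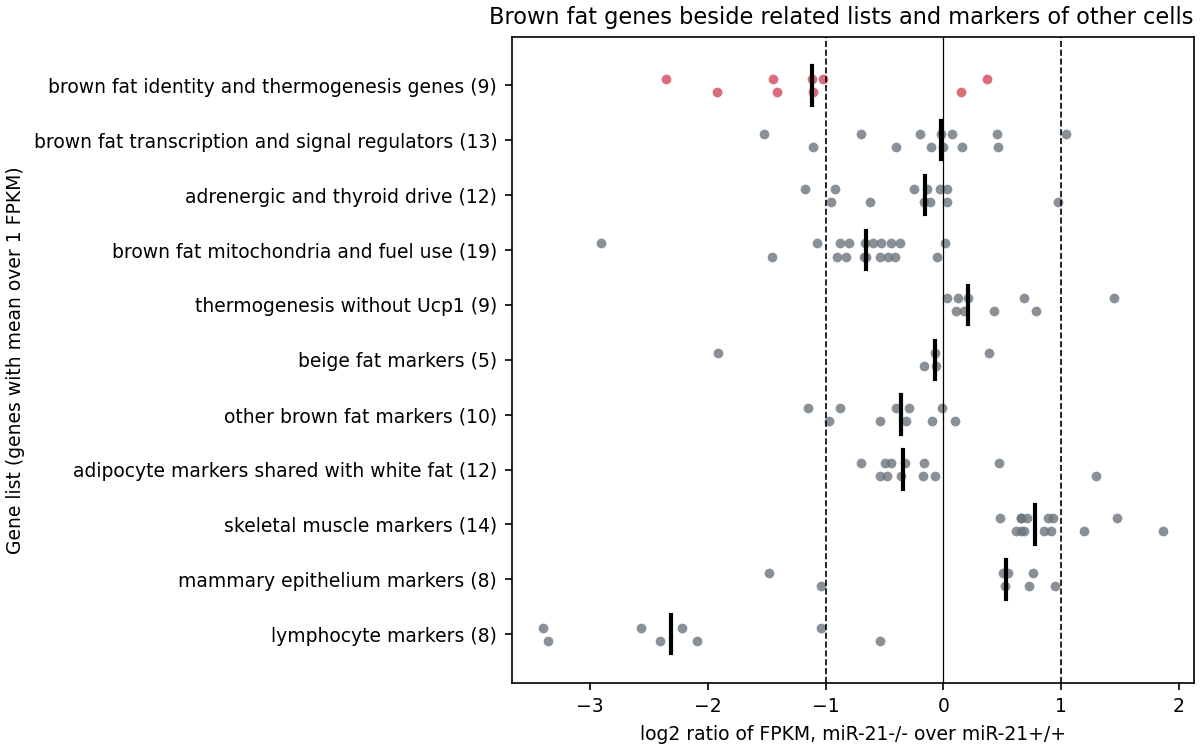
Log2 ratio of FPKM, miR-21-/- over miR-21+/+, for the genes of each list with a mean over 1 FPKM (points, number in brackets), with the list's median as a black bar and dashed lines at 2-fold. *Elovl3* is not drawn because its mean was 0.980 FPKM, and the median of the other 9 brown fat genes, −1.11, lies below those of all lists but the lymphocyte markers.

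Markers of several cell types in the tissue also differed between the genotypes, some lower and some higher in miR-21-/- glands. Their part in the result was not tested. In bulk tissue fewer cells of a type and less RNA per cell cannot be told apart. Of 13 adipocyte markers shared with white fat, 12 exceeded 1 FPKM, 0 were 2-fold lower and 1 was 2-fold higher, with a median of −0.34 and a summed level of 19236 FPKM in miR-21+/+ and 14623 FPKM in miR-21-/- glands. The defining marker *Adipoq* was at 1207 and 853 FPKM. *Fabp4*, the fatty acid binding protein of adipocytes, was at 7677 and 5523 FPKM. *Lep*, the hormone leptin of white fat, was the exception at 27.7 and 67.9 FPKM. When both columns were scaled so that these markers had a median of 0, 5 of the 10 brown fat genes stayed 2-fold lower, with *Ucp1* at −2.01, *Elovl3* at −2.32, *Dio2* at −1.58, *Ppargc1a* at −1.10 and *Cidea* at −1.07. The share of all rows that were 2-fold lower under this scaling was not counted, so this number has no background beside it.

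Lymphocyte markers were lower as well. Of 8, 7 were 2-fold lower, the median was −2.31, or −1.04 over those with a mean above 5 FPKM, and the summed level was 136 FPKM in miR-21+/+ and 66.6 FPKM in miR-21-/- glands. *Cd3e*, which defines T cells, was at 7.26 and 1.22 FPKM. The row that holds *Cd79a* merges it with *Arhgef1*, at 70.3 and 48.3 FPKM, and cannot separate the genes. This merged row is the largest part of both sums and is among the rows behind the median of −1.04. Few of the 8 markers have a mean above 5 FPKM, and that median is the value of a single marker. Skeletal muscle markers lay in the other direction, with all 14 above 0, 3 of them 2-fold higher, a median of 0.78, or 0.15 with equal sums over all loci, and sums of 1484 and 2473 FPKM, *Ckm* being at 214 and 338 FPKM. Of 8 epithelial markers 2 were 2-fold lower, the milk protein genes *Csn2* and *Wap*, while the other 6 were above 0. The median was 0.53, or −0.10 with equal sums over all loci, and the sums were 420 and 624 FPKM, with *Krt18* at 148 and 216 FPKM. Of 6 sympathetic nerve markers 1 exceeded 1 FPKM, *Slc18a2*, at 1.22 FPKM in miR-21+/+ and 1.44 FPKM in miR-21-/- glands. The others were near the lower end of the table. *Th* was at 0.0875 and 0.0522 FPKM, *Ddc* at 0.327 and 0.171 FPKM and *Slc6a2* at 0.136 and 0.265 FPKM. *Dbh* was listed at 0 in miR-21+/+ and *Npy* at 0 in miR-21-/- glands. The row of the targeted gene, which merges *Mir21* with its host *Vmp1*, was at 42.5 and 68.2 FPKM and does not measure the mature microRNA.

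**Figure D4:**
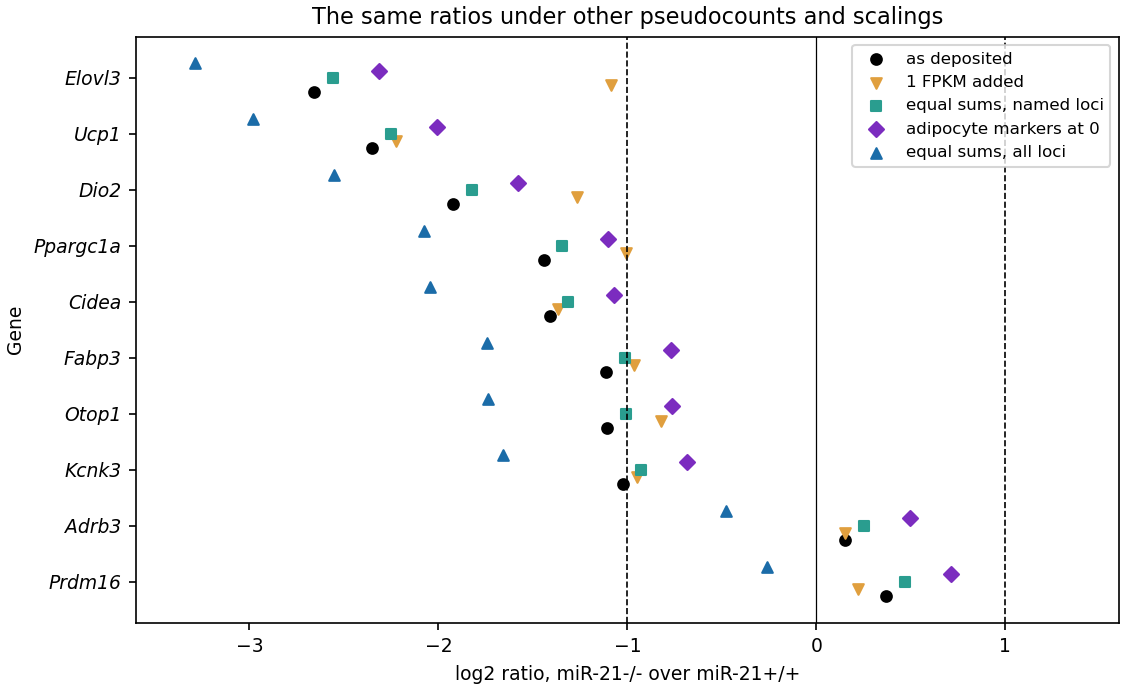
Log2 ratio, miR-21-/- over miR-21+/+, of each of the 10 genes as deposited, with 1 FPKM added, and with the columns scaled to equal sums over named loci, to adipocyte markers at a median of 0, or to equal sums over all loci, with dashed lines at 2-fold. The 8 lower genes lay below 0 under all 5 settings drawn, whereas *Adrb3* and *Prdm16* changed sign under equal sums over all loci. For the 8 genes this sign was fixed beforehand. Adding 1 FPKM cannot change a sign, and the largest upward shift of a scaling was 0.34.

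The FPKM columns summed to 759295 and 1175603 over all 30506 loci but to 380567 and 355385 over the 22483 loci with a gene name, for miR-21+/+ and miR-21-/- respectively. Equal sums over all loci shift every log2 ratio by −0.63, and equal sums over named loci by 0.10. The ratios given are those of the deposited values, without rescaling, unless a scaling is named.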

How the data were processed

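Poly(A) RNA of 2 miR-21+/+ and 2 miR-21-/- mammary glands was sequenced as single-end reads on an Illumina HiSeq. Per the submitters' processing notes and the paper's methods, CASAVA and TopHat were used with mm9, and the authors obtained FPKM with Cufflinks. Versions, gene annotation and normalization options were not given in the sources used here. The authors deposited 1 FPKM value per genotype for each locus. Their own comparison (fold change, statistic, p-value, q-value and call) was not used, apart from the mark that says whether it was completed. A gene with several rows was given the row with the highest mean FPKM. Log2 ratios were plain ratios without a pseudocount, and 2-fold was taken as the limit. No test was possible with 1 value per genotype, and the limma model planned for values per mouse was not run. The precision of low values is unknown because the depth is unknown.

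The members and the 11 lists of 129 genes in all were chosen with earlier results of these data known. In each list the 3 most abundant genes and those past 2-fold above 1 FPKM could be named. *Ucp2*, *Ucp3*, the genes that share a locus with a member and a few defining or related genes were chosen after seeing their values. Seed matches used GENCODE transcripts of mm9, with an annotated 3′ UTR for 93.9% of 13878 gene names. The start of a locus in the table counts from 0, and positions printed here count from 1 and are those of GENCODE. Alternatives were pseudocounts of 0.1 and 1, 4 scalings of the columns, other limits of FPKM and fold, and other choices of rows. Calculations used Python 3.11.15, numpy 2.4.6, pandas 2.3.3 and matplotlib 3.10.9, and the ratio and count steps were tested on simulated data. One lymphocyte marker is not reported here by name.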

Additional observations from a re-analysis of the deposited data

How the results depend on the processing

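No paired analysis was possible because only 1 FPKM was deposited for each genotype, and leaving out each mouse in turn was not run for the same reason. Of the 10 genes, 8 were lower by 2-fold or more as deposited. This number became 5 with a pseudocount of 1, 5 with the columns scaled to a median of 0 over adipocyte markers, 3 with a limit of 3-fold, namely *Ucp1*, *Elovl3* and *Dio2*, and 4 with a minimum of 5 FPKM in at least 1 genotype. The last follows from the genes it leaves out. Under the other alternatives the number lay between 7 and 8, and 0 genes were 2-fold higher under any of them. Shares of all rows were counted only for the deposited values at 2-fold. They do not serve as background for the pseudocounts, the scalings or the other fold limits. The median log2 ratio of the 10 genes, −1.26, became −1.89 with the columns scaled to equal sums over all loci. It lay within 2-fold under other settings, at −0.92 with the columns scaled to a median of 0 over adipocyte markers and −0.985 with a pseudocount of 1. Scaling to the adipocyte markers and leaving out rows marked failed were chosen after seeing the data. Across the pseudocounts, scalings and row choices *Ucp1* ranged from −2.98 to −2.01 and *Kcnk3* from −1.66 to −0.68. Depth is unknown, which limits what the low values of *Elovl3*, *Prdm16*, *Dio2* and *Ppargc1a* can show.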

Other observations

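The genes that lie around the brown fat genes were also compared, as a description only. Within 500 kb on each side there were 111 other named rows over 1 FPKM in at least 1 genotype, counted once for each gene they neighbour. Of these, 0 were 2-fold lower and 5 were 2-fold higher in miR-21-/- glands. Over all 13302 rows the shares were 2.53% lower and 2.08% higher, so few such rows would be found among 111 in any case. A shared regional cause was not tested. The 12 neighbours of *Ucp1* had log2 ratios between −0.63 and 0.55, and the 11 neighbours of *Cidea* between −0.29 and 0.23. No neighbour of *Ppargc1a* within that distance exceeded 1 FPKM.

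The promoter windows of the 6 matched genes differed in base composition. GC content was 41.6% for *Dio2* and 48.0% for *Ppargc1a*, against 62.4% for *Prdm16*, 64.8% for *Ucp1* and for *Fabp3* and 70.0% for *Otop1*, with a median of 52.4% over all promoters of that length.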
